A study of Mus musculus with 10 samples.

Results

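Guanylate-binding proteins (GBPs) and immunity-related GTPases (IRGs) were examined in 4T1, an established mouse mammary carcinoma cell line, grown in collagen gels of different density. Of 9 listed genes (Gbp2, Gbp3, Gbp5, Gbp6, Gbp7, Irgm1, Irgm2, Igtp and Iigp1), 7 had a feature on the array annotated to that gene alone, out of 30142 genes with such a feature. Each of the 7 had 1 such feature. Gbp5 and Gbp6 had features that also carry the name of a close paralog, so no value for either gene alone can be given. The low-density group (LD) held 5 samples in gels of 2 mg/mL collagen, and the high-density group (HD) held 5 samples in gels of 3.5 mg/mL. All cultures started from 50000 cells and were kept at 37 °C under 5% CO2 in RPMI medium with 10% FBS for 5 days, with fresh medium on day 3. The labels name no interferon or other agent in either group, and the density of the collagen is the difference they give. Total RNA of each sample was hybridised to 1 Affymetrix MTA 1.0 array.

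GBPs and IRGs are large GTPases that cells make in quantity when interferon, above all interferon gamma, acts through JAK kinases and the transcription factor IRF1. GBPs are dynamin-like proteins that assemble on the membranes of vacuoles and bacteria and help to open them and to trigger inflammasomes. IRGs fall into effectors such as Iigp1 (Irga6), which disrupt the vacuoles of intracellular parasites, and regulators such as Irgm1, Irgm2 and Igtp (Irgm3), which keep the effectors off the cell's own membranes. Tumour cells express many of these genes as part of their interferon response.

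In RefSeq's mouse annotation (GRCm38.p6), Gbp2, Gbp3, Gbp5 and Gbp7 lie in 1 cluster on chromosome 3, and Irgm1, Igtp and Irgm2 lie on chromosome 11. Start-site windows of 250 bases before to 50 bases after the gene start were used for 7 of the 9 members. None was used for Gbp6 or Iigp1, and the chromosome of Iigp1 was left out when member windows were chosen. This left 8 windows, 2 of them for Gbp3. They were searched for the gamma-activated site (GAS, TTCNNNGAA) and for the core of the interferon-stimulated response element bound by IRF factors (ISRE core, GAAANNGAAA, or TTTCNNTTTC on the other strand). The windows of 4 members are shown because they cover both families and both arrangements of these motifs, from the gene that fell most to the one that fell least. Matches are in capitals and the sequences read 5′ to 3′ along each gene.
Gbp2, chr3:142620413-142620712, plus strand: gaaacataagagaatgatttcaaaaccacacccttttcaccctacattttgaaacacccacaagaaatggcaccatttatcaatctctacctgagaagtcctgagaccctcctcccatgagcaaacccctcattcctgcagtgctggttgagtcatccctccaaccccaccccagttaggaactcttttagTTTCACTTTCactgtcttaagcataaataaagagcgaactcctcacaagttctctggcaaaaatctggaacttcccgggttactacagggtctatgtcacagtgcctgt
Gbp7, chr3:142530086-142530385, plus strand: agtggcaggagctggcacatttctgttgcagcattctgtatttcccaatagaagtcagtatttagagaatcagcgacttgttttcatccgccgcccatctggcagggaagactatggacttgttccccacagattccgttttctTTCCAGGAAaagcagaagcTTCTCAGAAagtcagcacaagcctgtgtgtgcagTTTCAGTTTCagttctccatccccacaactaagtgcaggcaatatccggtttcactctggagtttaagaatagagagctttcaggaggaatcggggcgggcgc
Igtp, chr11:58199306-58199605, plus strand: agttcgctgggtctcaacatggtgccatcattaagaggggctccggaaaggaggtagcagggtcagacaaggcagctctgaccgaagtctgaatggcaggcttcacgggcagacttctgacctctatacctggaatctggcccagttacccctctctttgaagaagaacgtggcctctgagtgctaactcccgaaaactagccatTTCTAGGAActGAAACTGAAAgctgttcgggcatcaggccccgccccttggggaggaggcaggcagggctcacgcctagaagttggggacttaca
Irgm1, chr11:48871371-48871670, minus strand: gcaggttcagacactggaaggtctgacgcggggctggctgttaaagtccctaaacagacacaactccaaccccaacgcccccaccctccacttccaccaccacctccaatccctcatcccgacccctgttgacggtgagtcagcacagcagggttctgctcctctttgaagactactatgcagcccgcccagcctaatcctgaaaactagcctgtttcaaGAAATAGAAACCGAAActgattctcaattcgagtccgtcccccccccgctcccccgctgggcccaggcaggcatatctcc

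An ISRE core was present in 7 of the 8 windows, at least 1 for each of the 7 members, and in 3.44% of all 32851 start-site windows. The second window of Gbp3 held neither motif. A GAS match was present in 4 of the 8 windows (Gbp5, Gbp7, Igtp and Irgm2), against 8.3% of all windows, and these 4 held both motifs, against 0.454% of all windows. In Gbp2 the ISRE core TTTCACTTTC lay 59 to 50 bases before the start, with no GAS match in the window. In Igtp the GAS match ended 37 bases before the start and the ISRE core GAAACTGAAA began 34 bases before it. Irgm2 held the same pair, and around the GAS match 97 of 100 bases were identical between the 2 neighbouring genes. Irgm1 and Gbp3 each held 2 overlapping ISRE cores, which run together as GAAATAGAAACCGAAA in Irgm1 and TTTCAGTTTCTATTTC in Gbp3.  A match is a stretch of letters and was not tested for binding.

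All 6 members that could be tested were lower in HD than in LD, by 1.49-fold to 3.11-fold. A gene was tested where its mean signal over the 10 arrays lay above the median of all features (log2 5.24), which 6 of the 7 members passed and 17800 genes in all. Each of the 6 also lay above that floor in the mean of each group, so none passed through LD alone. With limma and Benjamini-Hochberg adjustment over all genes tested, 6 of 6 members were called lower at an adjusted p under 0.05, where 50.9% of genes were called in all, 19.5% lower and 31.4% higher. In 6 of 6 all HD arrays lay below all LD arrays, as they did for 15.1% of genes. The median change of the 6 was -0.84 on the log2 scale, against 0.06 for all genes tested. In RNA from whole gels, fewer cells that express a gene and less RNA per cell cannot be told apart. The labels do not say whether the gels of a group were independent cultures, so each p-value reflects the spread among these arrays, part of which may be technical.

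**Figure D1:**
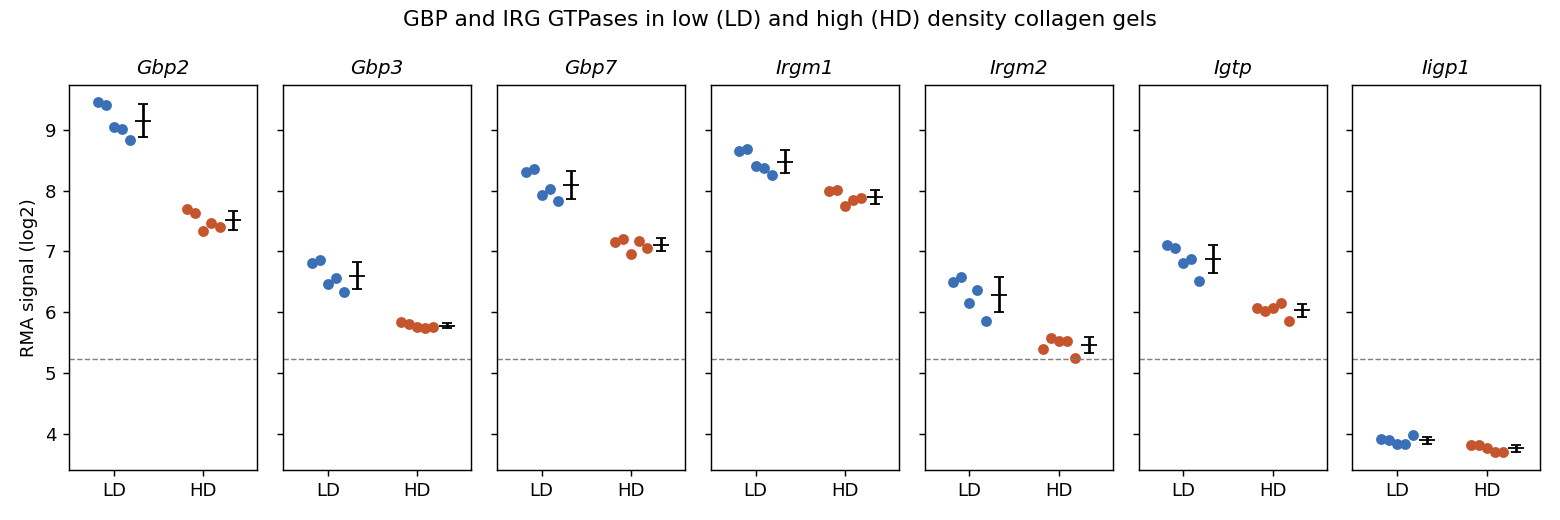
RMA signal (log2) of the 7 members with a feature of their own on each array, LD in blue and HD in orange. Black marks give the mean ± SD of 5 arrays, and the dashed line is the floor at 5.24. The groups are apart in each of the 6 members above the floor, and Iigp1 lies below it on every array.

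Gbp2, a GBP that gathers on the vacuoles of Toxoplasma and on bacteria, fell most. Its signal on the 5 LD arrays was 9.45, 9.41, 9.04, 9.02 and 8.83 (log2), and on the 5 HD arrays 7.70, 7.64, 7.33, 7.47 and 7.41. The lowest LD array stood 1.13 above the highest HD array. The LD mean was 9.15 ± 0.27 (SD, n = 5) and the HD mean 7.51 ± 0.15, which is 3.11-fold with a 95% interval of 2.64 to 3.67 (log2 change -1.64 ± 0.11 SE, limma adjusted p = 1.1e-07). Among the 17800 genes tested, Gbp2 had the 11th largest fall, with 0.0562% of genes falling more. Its 95% interval on the log2 scale, -1.87 to -1.40, did not overlap that of any other member, the nearest being that of Gbp7 at -1.17 to -0.78; the difference between the genes was not tested.

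Gbp7, a GBP that supports the killing of intracellular bacteria in mice, was 8.31, 8.35, 7.93, 8.02 and 7.82 on the LD arrays and 7.16, 7.21, 6.96, 7.17 and 7.06 on the HD arrays. No HD array reached the lowest LD array. The fall was 1.97-fold (95% interval 1.71 to 2.26, log2 change -0.98 ± 0.092 SE, limma adjusted p = 1.7e-06). Gbp3, a further GBP of the same cluster, was 6.80, 6.86, 6.47, 6.56 and 6.34 in LD and 5.84, 5.81, 5.76, 5.75 and 5.76 in HD. The HD arrays lay close together, at an SD of 0.040 against 0.22 in LD. Gbp3 fell 1.76-fold (95% interval 1.56 to 2.00, log2 change -0.82 ± 0.082 SE, limma adjusted p = 2.9e-06).

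The 3 regulatory IRGs fell as well. Irgm1, which also acts in autophagy and mitochondrial upkeep in mice, was 8.65, 8.69, 8.40, 8.37 and 8.26 on the LD arrays and 7.99, 8.01, 7.74, 7.85 and 7.89 on the HD arrays. Its groups were the closest among the 6, with a gap of 0.25 between the lowest LD and the highest HD array. It had the smallest fall of the 6, at 1.49-fold (95% interval 1.32 to 1.68, log2 change -0.58 ± 0.080 SE, limma adjusted p = 4.5e-05). The fall of Irgm1 was also the one below 1.5-fold. The other 5 were called lower by at least 1.5-fold, as were 1.56% of all genes. When the test itself was made against a change of 1.5-fold (limma's treat), 1 of the 6, Gbp2, was called lower (adjusted p = 5.6e-05), as were 0.545% of genes.

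Igtp was 7.11, 7.06, 6.82, 6.88 and 6.51 in LD and 6.07, 6.02, 6.07, 6.15 and 5.86 in HD. Every LD array was above every HD array, and the fall was 1.79-fold (95% interval 1.56 to 2.06, log2 change -0.84 ± 0.093 SE, limma adjusted p = 6.4e-06). Irgm2 was 6.49, 6.58, 6.16, 6.36 and 5.86 in LD and 5.40, 5.58, 5.53, 5.53 and 5.26 in HD. Its LD arrays spread most among the members, with an SD of 0.29. The fall of Irgm2 was 1.78-fold (95% interval 1.51 to 2.11, log2 change -0.83 ± 0.11 SE, limma adjusted p = 3.4e-05). In HD its signal lay at the level of the array's negative control features, whose medians were 5.26 to 5.58 on the HD arrays, which limits this fold. Igtp and Irgm2 are close paralogs, and whether the probes separate them was not tested.

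Iigp1, the effector IRG of the list, was below the floor in both groups. It was 3.93, 3.90, 3.84, 3.85 and 3.98 on the LD arrays and 3.83, 3.82, 3.78, 3.71 and 3.71 on the HD arrays. The groups were apart by 0.013, and the group means differed by -0.13. Both groups lay well under the negative control features, at 5.61 to 5.75 in LD and 5.26 to 5.58 in HD, so no fold is given. Without the floor, Iigp1 was called lower (limma adjusted p = 0.032), where 11.3% of 30142 genes were.

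Gbp5 and Gbp6 were measured together with a paralog each. Gbp5 promotes assembly of the NLRP3 inflammasome in mice, and its feature also covers Gbp2b. That shared feature was 6.32, 6.19, 5.87, 5.97 and 5.85 in LD and 5.38, 5.36, 5.23, 5.27 and 5.27 in HD, with no overlap. The feature shared by Gbp10 and Gbp6 was 8.11, 8.10, 7.85, 7.84 and 7.51 in LD and 6.87, 6.68, 6.68, 6.83 and 6.76 in HD. In a limma fit over all features above the floor, added after the data were seen, both shared features were called lower (adjusted p = 3.5e-05 and 5.9e-06), as were 26.0% of features. The Gbp10 and Gbp6 feature changed by -1.12 ± 0.10 SE on the log2 scale. The Gbp2b and Gbp5 feature lay at the level of the negative control features in HD (5.26 to 5.58), so no size of change is given for it. Which gene of each pair carries the difference cannot be read from them.

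The members shared the order of the LD arrays. In 6 of 6, LD replicates 1 and 2 were the highest and LD replicate 5 was the lowest, a pattern found in 4.61% of all genes tested. Averaged over the 6 members, LD replicates 1 and 2 lay 0.222 and 0.245 above the LD mean and LD replicate 5 lay at -0.310 from it. In HD the averages ranged from -0.10 to 0.08. The SD over LD arrays exceeded that over HD arrays in 6 of 6 members, with medians of 0.24 and 0.11, whereas it did so in 37.7% of all genes, with medians of 0.063 and 0.076. Of 25 tested interferon-induced genes of other families, 16 had LD replicates 1 and 2 highest and LD replicate 5 lowest. So did 4 of 7 other GTPases of these families, 8 of 14 antigen presentation genes and 6 of 16 interferon-gamma signalling genes. The order was found in 5 of 17 interferon induction genes, 2 of 9 inflammasome genes and 3 of 16 genes of Atg8 conjugation. The medians of the negative control features on LD replicates 1, 2 and 5 were 5.75, 5.61 and 5.67. Those of background features were 3.45, 3.40 and 3.50, of positive control features 9.20, 9.23 and 9.21, and of ERCC features 4.56, 4.45 and 4.52. Whether the order of the members follows any of these was not tested.

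**Figure D2:**
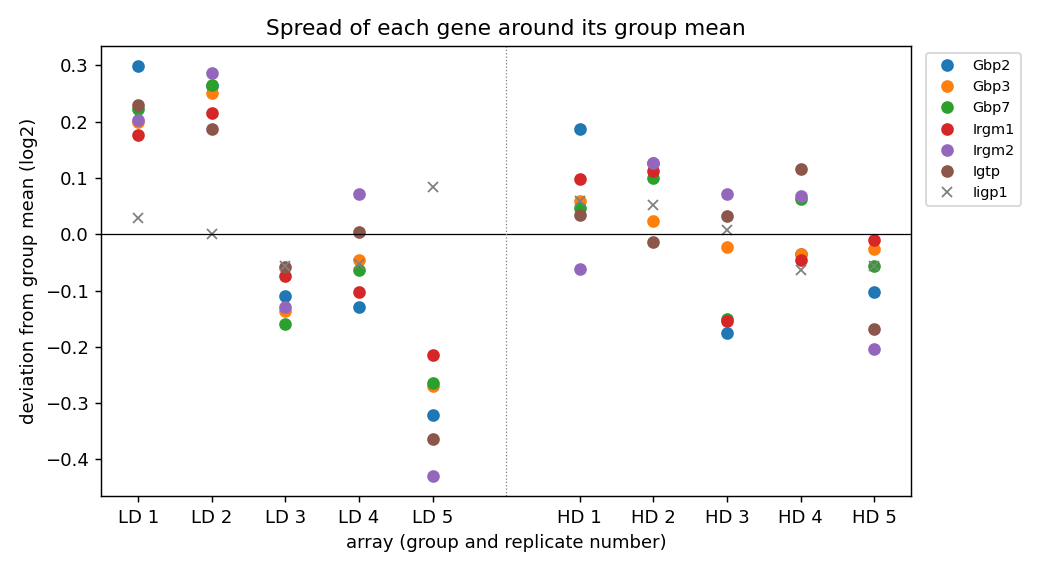
Deviation of each member from its own group mean (log2) on each array, LD replicates on the left and HD replicates on the right. Circles are the 6 members above the floor and crosses are Iigp1. The circles lie above 0 on LD 1 and LD 2 and between -0.43 and -0.21 on LD 5, and Iigp1 does not share this order.

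Other GTPases of these families were read from the same fit. Of 20 genes listed, 7 were tested, of which 5 fell and none rose (median log2 change -0.88). Gbp9 fell 2.21-fold (log2 change -1.14 ± 0.079 SE, limma adjusted p = 1.3e-07), Gbp4 1.99-fold, Gbp8 1.86-fold and Gbp11 1.84-fold. These 4 GBPs are close relatives of Gbp6 and Gbp10, and shared hybridisation between them was not tested. Gvin1, a very large interferon-induced GTPase, fell 1.23-fold (log2 change -0.30 ± 0.066 SE, limma adjusted p = 0.0020). Irgq, an IRG-related protein, differed by 0.02 (95% interval -0.09 to 0.13), and Atl3, a dynamin-like atlastin that shapes the endoplasmic reticulum, by 0.03 (-0.05 to 0.11). Neither passed the test, although Irgq was called higher at 0.24 (adjusted p = 0.012) when arrays were scaled on negative and positive control features.

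Interferon-gamma signalling, a known inducer of these GTPases, was next read by role. Whether it acted on them in these cultures was not tested. Ifng itself, the ligand, was below the floor, with means of 3.80 ± 0.07 in LD (SD, n = 5) and 3.90 ± 0.05 in HD. Of 19 listed genes of interferon-gamma signalling, 16 were tested, of which 9 fell and 3 rose (median -0.18). Both receptor chains fell, Ifngr1 1.30-fold (log2 change -0.38 ± 0.048 SE, limma adjusted p = 1.7e-05) and Ifngr2 1.12-fold. Of the receptor-bound kinases, Jak2 fell 1.19-fold. Jak1 differed by -0.06 (95% interval -0.13 to 0.005) and did not pass the test as deposited. It was called lower under 3 of the 4 scalings tried, at -0.11 to -0.17. The falls were not particular to interferon gamma. The type I interferon receptor chains Ifnar1 and Ifnar2 each fell 1.19-fold (limma adjusted p = 3.7e-05 and 1.9e-04), and the kinase Tyk2 1.25-fold. Ifnb1 and Ifna4, type I ligands, were below the floor like Ifng. These type I genes were named after their values were seen.

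Among the transcription factors, Irf9 fell 1.71-fold (log2 change -0.77 ± 0.079 SE, limma adjusted p = 3.1e-06), Stat2 1.62-fold and Irf1 1.62-fold. Irf1 is a main inducer of GBP genes, and Irf9 and Stat2 act in a complex that binds ISREs. The signal of Irf1 was 9.31 ± 0.12 in LD (SD, n = 5) and 8.62 ± 0.09 in HD, with no overlap. Irf2, which competes with Irf1, fell 1.14-fold, and Irf8 differed by -0.10 and did not pass the test (adjusted p = 0.052), but was called without LD replicate 2 (-0.11, adjusted p = 0.048) or HD replicate 3 (-0.12, adjusted p = 0.024), with the stricter filter (adjusted p = 0.036) and with scaling on background and positive control features (-0.20, adjusted p = 4.0e-04). Stat3, which serves other cytokines, differed by -0.01 (95% interval -0.09 to 0.07).

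The inhibitors of the pathway did not move one way. Socs1, which blocks JAK activity, rose 1.27-fold (log2 change 0.34 ± 0.057 SE, limma adjusted p = 2.1e-04), while Socs3 differed by 0.06 and did not pass the test. The phosphatase Ptpn6 fell 1.18-fold and the STAT inhibitor Pias1 1.15-fold. Ptpn2, a phosphatase that acts on JAKs, and Ciita, the activator of MHC class II genes, were called higher by 0.13 and 0.09 (adjusted p = 0.039 and 0.044). Ciita had means of 5.42 in LD and 5.51 in HD, where those of the negative control features were 5.67 and 5.42. The Ptpn2 call was lost without any 1 of LD replicates 1 to 4 or HD replicates 1, 2, 4 or 5 (0.10 to 0.13, adjusted p of 0.051 to 0.094). The Ciita call was lost without any 1 of LD replicates 1, 2, 3 or 5 or HD replicates 2 to 5 (0.08 to 0.10, adjusted p of 0.054 to 0.11), and with arrays scaled on background and positive control features Ptpn2 was at 0.04 (adjusted p = 0.55) and Ciita at -0.04.

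**Figure D3:**
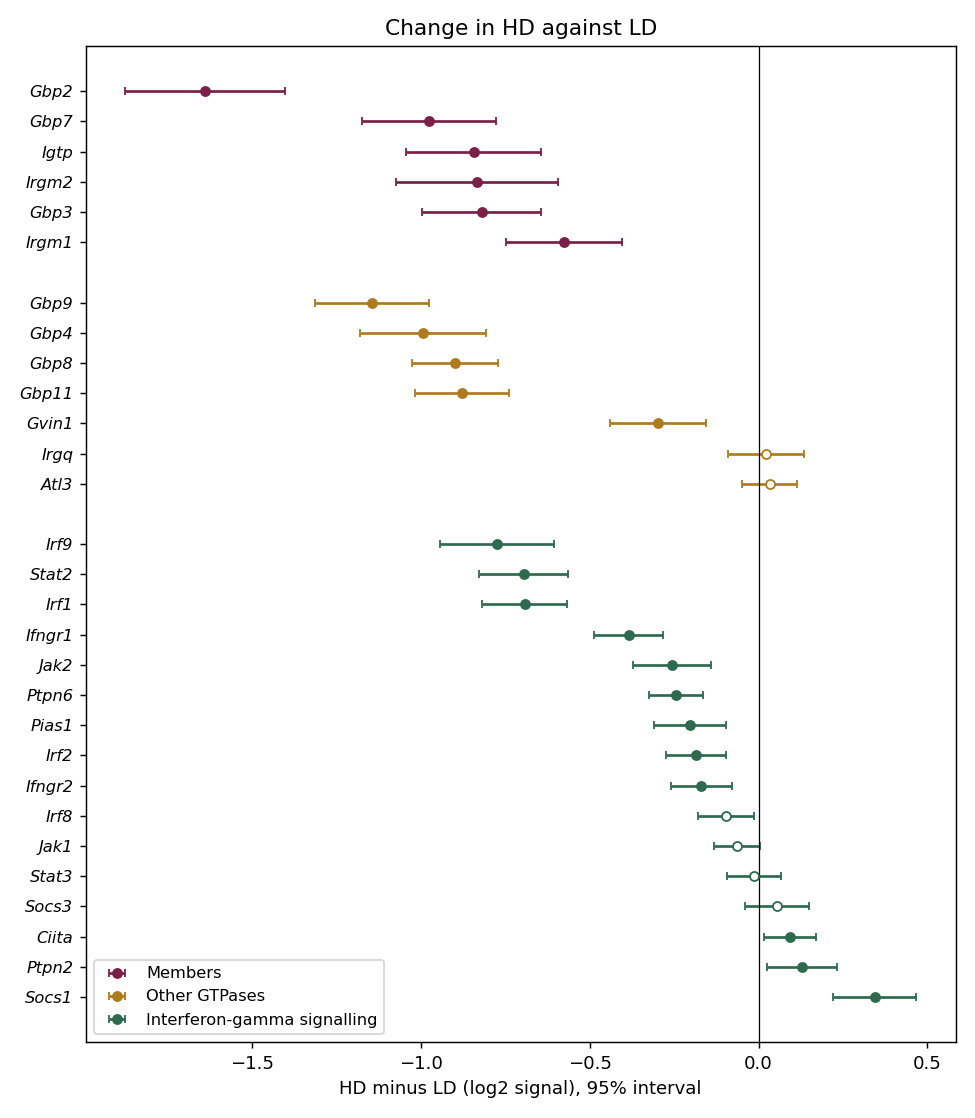
Log2 change in HD against LD with its 95% interval for the 6 tested members, 7 tested relatives and 16 tested genes of interferon-gamma signalling. Filled points passed an adjusted p of 0.05 in limma and open points did not. The members and the GBP relatives lie between -1.64 and -0.58, and Socs1 is the gene farthest to the right at 0.34.

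The genes through which GBPs and IRGs act moved in both directions. Of 16 tested genes of Atg8 conjugation and membrane tagging, which loads IRGs and GBPs onto vacuoles, 7 fell and 3 rose (median -0.06). Trim21, a ubiquitin ligase, fell 1.46-fold and the autophagy receptor Sqstm1 1.36-fold, while Atg3, the conjugating enzyme, rose 1.30-fold. Of 9 tested genes of the inflammasome and pyroptosis, 5 fell and 1 rose (median -0.19). Among the 5, the call of Casp4 (-0.19, limma adjusted p = 0.041), named after its value was seen, was not firm. It was lost without any 1 of LD replicates 1 to 3 or HD replicates 3 to 5. The Casp4 difference was -0.0006 (adjusted p = 0.99) when arrays were scaled on negative and positive control features. The nucleic acid sensor Zbp1 fell 1.62-fold, a value limited by its HD mean of 5.64 next to the negative control features, the pore-forming Gsdmd 1.32-fold and the cytokine Il18 1.32-fold. The gene that rose was Pycard, the inflammasome adaptor, named after its value was seen. Its means were 5.26 in LD and 5.40 in HD, where those of the negative control features were 5.67 and 5.42. Pycard was called higher by 0.14 (limma adjusted p = 0.044). That call was lost without any 1 of LD replicates 1, 2, 3 or 5 or HD replicates 1, 3 or 4 (0.11 to 0.14, adjusted p of 0.068 to 0.11), and the difference was 0.0048 (adjusted p = 0.95) when arrays were scaled on background and positive control features.

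Genes upstream of interferon production and other interferon-induced genes were set beside the GTPases. Of 17 tested genes of interferon induction, 10 fell and 3 rose (median -0.25), where 19.5% of all genes fell and 31.4% rose. Irf7 was 1.61-fold and Tlr3 1.38-fold lower, and Dhx58 was at -0.59 on the log2 scale. The 3 that rose, named after their values were seen, were Cgas, Myd88 and Irf5. They changed by 0.37, 0.32 and 0.15 (limma adjusted p = 1.5e-04, 5.6e-05 and 0.0056). The Irf5 call was lost with scaling on background and positive control features (0.04, adjusted p = 0.44). Of 25 tested interferon-induced genes of other families, 23 fell and none rose (median -0.56). In 3 of the 23 (Ddx60, Ifit3 and Trim30a) the HD mean lay below the floor, so they passed it through LD; of the other 22 tested genes 20 fell (median -0.57). Ddx60 was at 7.04 in LD and 5.18 in HD, and no size of change is given for it. Oasl2 fell 2.89-fold and Ifit1 2.38-fold. Ifit1 had an HD mean of 5.60, close to the negative control features, which limits its fold. Of 14 tested antigen presentation genes, 11 fell and none rose (median -0.28), led by Tapbp (1.45-fold), Tap1 (1.43-fold) and H2-Q4 (1.33-fold). The lists were chosen with earlier results of these data known, and whether the GTPases differ from these lists was not tested.

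**Figure D4:**
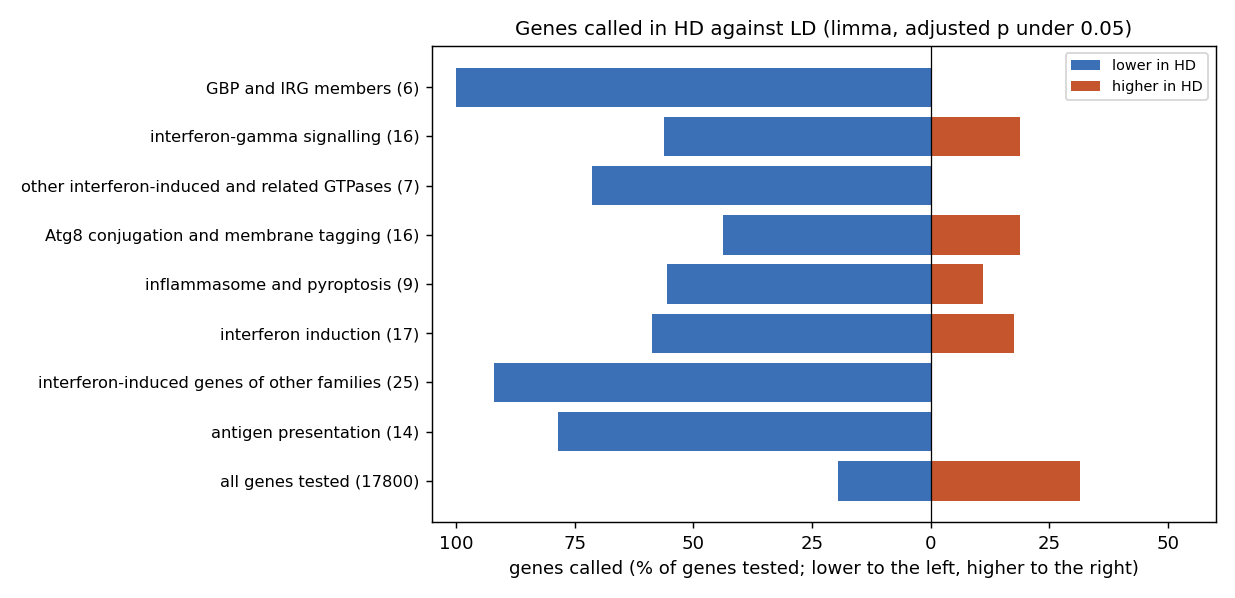
Share of tested genes called lower (left, blue) or higher (right, orange) in HD by limma for the members, each list and all genes, with the number tested in brackets. All 6 members and 23 of 25 interferon-induced genes of other families were lower, against 19.5% of all genes.

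The genes whose signal over the 10 arrays ran closest to the members were named by the root mean square difference of log2 values, each gene centred on its own mean. Closest to Gbp2 were Oasl2 (0.083), Txnip (0.10), Bnip3 (0.13), Ddx60 (0.13) and Gm16439 (0.14). Closest to the mean of the 6 members were A330074K22Rik (0.072), Gbp4 (0.073), Parp9 (0.074), Ctns (0.077) and Gbp11 (0.081). Oasl2, Ddx60, Parp9, Gbp4 and Gbp11 are interferon-induced, Txnip binds thioredoxin and limits glucose uptake, Bnip3 is a mitophagy receptor, and Ctns is the lysosomal cystine exporter. This measure rests mainly on the size of the difference between the groups.

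The arrays as a whole bear on these values in a few ways. The medians of negative control features were 5.67 ± 0.05 in LD (SD, n = 5) and 5.42 ± 0.12 in HD, and those of background features 3.47 ± 0.06 and 3.63 ± 0.06 (both p = 0.0079 in an exact two-sided permutation test, its minimum with 5 arrays a group). Positive control features, which both scalings on control features use, were at 9.21 in LD and 9.28 in HD (exact permutation p = 0.0079), and ERCC features at 4.51 and 4.70 (exact permutation p = 0.032). The 6 members stayed lower under the 2 scalings on control features, and the part of these shifts in the results was not tested further. All 8 epithelial markers were above the floor, with Krt8 at 12.01 in LD and 12.04 in HD. Of 8 macrophage and 8 T and NK cell markers, 6 each were below the floor and below the negative control median on every array, Ptprc, Adgre1, Cd3g and Ncr1 among them. Summed on the linear scale, macrophage markers were at 659 to 694 in LD and 513 to 655 in HD. The 2 macrophage markers above the floor moved in opposite directions: Cd68, a lysosomal protein, fell by 0.74 (log2) and Cd14, a receptor for bacterial lipopolysaccharide, rose by 0.26 (adjusted p = 0.014). T and NK cell markers were at 216 to 235 and 231 to 264, and Cd3e was called higher by 0.16 (adjusted p = 0.022). Its means of 5.29 in LD and 5.45 in HD were no clear step above the negative control features. All 4 endothelial markers were below the floor, and of 6 fibroblast markers Dcn and Lum were below it while Col3a1 was called higher by 0.15 (adjusted p = 0.033); Col1a1, at 6.71 in LD and 6.80 in HD, did not pass the test. The 5 epithelial markers that passed the test fell, Cldn4 most, by 1.09 on the log2 scale. Summed on the linear scale, epithelial markers were at 15024 to 15186 in LD and 12677 to 13625 in HD.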

How the data were processed

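Expression was measured on 10 Affymetrix MTA 1.0 arrays, 5 LD and 5 HD. The deposited values are log2 signals, which per the submitters' processing notes came from RMA run by the authors; its version and the genome build were not given in the sources used here. RMA compresses folds. The log2 scale was taken from the values (1.49 to 14.3). The number of arrays limits the precision. Among 72688 rows, 30604 carried 1 distinct gene symbol and 2146 several, and 33206 transcript clusters carried none. Symbols of 22818 rows were matched to RefSeq by gene ID and 827 updated. The row with the highest mean over 10 arrays stood for a gene. The comparison of HD with LD used lmFit and eBayes of limma 3.58.1 (R 4.3.3), two-sided, Benjamini-Hochberg adjusted over 17800 genes, and the fit was tested on simulated data. Permutation tests used SciPy 1.17.1. Promoter windows came from RefSeq (GRCm38.p6).

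The members and gene lists were chosen with earlier results of these data known. Named genes were all members, all tested genes of the interferon-gamma and related GTPase lists, the 3 called genes with the largest change of each other list, and the 5 nearest profiles of each kind. The same-numbered arrays deviated together with correlations over genes of 0.19, -0.091, -0.036, 0.22 and -0.025, so replicate numbers were not treated as pairs. Alternatives were filters, scalings, row averaging, variance models, array weights, a replicate block, a 1.5-fold test and leaving out each array.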

Additional observations from a re-analysis of the deposited data

How the results depend on the processing

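The 6 members stayed lower in HD with adjusted p of at most 0.0016 under every alternative that tested them, except the test against 1.5-fold. Under that test 1 member, Gbp2, was called (0.545% of all genes were called lower), and Gbp7 (-0.98, adjusted p = 0.063), Gbp3 (-0.82, adjusted p = 0.67), Igtp (-0.84, adjusted p = 0.77), Irgm2 (-0.83) and Irgm1 (-0.58, adjusted p = 1 for both) were not. The stricter filter left 3 members, all lower, and with no filter Iigp1 was called lower as well (-0.13, adjusted p = 0.032), where 11.3% of genes were. Leaving out 1 array gave -1.72 to -1.56 for Gbp2, -0.94 to -0.76 for Irgm2 and -0.63 to -0.52 for Irgm1, with 6 members lower and 0 higher each time. With the replicate block Gbp2 was at -1.64 and 6 members were lower; in the lists the block added 1 higher antigen presentation gene (H2-Ab1) and the lower calls of Mavs (adjusted p = 0.045) and Psmb8 (adjusted p = 0.038), and left Ciita uncalled (adjusted p = 0.073). Scalings moved the share of all calls that were lower from 38.3% to 66.2% (background and positive control features), 30.6% (median centring), 27.9% (quantile) and 27.9% (negative and positive control features, added after the data were seen), and the median of all genes from 0.06 to -0.04, 0.08, 0.09 and 0.13. Gbp2 was then at -1.72, -1.62, -1.62 and -1.63. The sizes of other members depended on the scaling. With background and positive control features, Irgm2, Gbp3, Igtp, Gbp7 and Irgm1 were at -0.96, -0.94, -0.95, -1.07 and -0.66. With negative and positive control features, the same genes were at -0.62, -0.63, -0.67, -0.90 and -0.55.

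The list counts moved as well. The 1.5-fold test called 0 genes in either direction in interferon-gamma signalling, Atg8 conjugation, the inflammasome, interferon induction and antigen presentation. It called 6 lower interferon-induced genes. The relatives went from 5 to 4 lower genes under that test, a smaller loss than that of the members, from 6 to 1. The stricter filter gave 2 lower relatives, 2 lower and 0 higher inflammasome genes and 10 lower interferon-induced genes, with fewer genes tested; no filter gave 8 lower relatives. In interferon-gamma signalling the higher genes went from 3 to 1 with no filter and with background and positive control scaling, and to 1 to 2 when 1 array was left out. In Atg8 conjugation the higher genes went to 5 after quantile normalization, which also ended the lower calls of Atg10 and Atg12. With 1 array left out, the lower genes numbered 4 to 6 in the inflammasome list and 10 to 12 in antigen presentation. There the lower call of B2m was lost without LD replicate 1, 2 or 3 or HD replicate 4. In the inflammasome list the higher genes went from 1 to 2 (quantile), 3 (negative and positive control scaling), 0 (background and positive control scaling, trended variances) and 0 to 1 (1 array left out). In antigen presentation 1 gene was higher with no filter, quantile normalization, median centring, array weights and the replicate block, 2 with negative and positive control scaling, and 0 to 1 with 1 array left out. Quantile and negative and positive control scaling each added 1 higher interferon-induced gene, Ifit2, and the latter 1 higher relative, Irgq. The added scaling ended the Ifit3, Oas3, Ifi35 and Cxcl10 calls. The cause was not tested. Arrays give no detection limit here beyond the control features, so the folds of Irgm2 and Gbp3 rest on HD signals near them.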

Other observations

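Several related genes had array features shared between symbols, and their values stand here without a gene call of their own. The feature of Tgtp2 and Tgtp1, IRGs that act on vacuoles in mice, was 6.46, 6.45, 6.02, 5.85 and 5.60 on the LD arrays and 4.72, 4.92, 4.53, 4.86 and 4.81 on the HD arrays. LD replicates 1 and 2 were again the highest and LD replicate 5 the lowest. A second feature, shared with Gm12185, had means of 5.77 ± 0.15 in LD (SD, n = 5) and 5.07 ± 0.08 in HD. The feature that names Nlrc5, the activator of MHC class I genes, together with a microRNA was 7.52 ± 0.09 in LD and 7.10 ± 0.07 in HD. The feature of Gvin1 and neighbouring predicted genes was 6.85 ± 0.08 in LD and 6.42 ± 0.15 in HD. That of the atlastin Atl1 and Gm3086 was 6.92 ± 0.05 in LD and 6.60 ± 0.06 in HD. Both Tgtp features had HD means below the floor of 5.24 and passed it over the 10 arrays through LD, so no change is given for them. In the fit over all features the Nlrc5, Gvin1 and Atl1 features changed by -0.42, -0.43 and -0.31 on the log2 scale. They were called lower (limma adjusted p of 6.4e-05, 2.8e-04 and 7.9e-05), as were 26.0% of features.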
